A study of Mus musculus with 6 samples.

Results

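The regions described here are the differentially methylated regions (DMRs) at 10 genes that set the G1 phase of the cell cycle, namely the CDK inhibitors Cdkn2b, Cdkn2a, Cdkn2c, Cdkn1a, Cdkn1b and Cdkn1c, the D-type cyclins Ccnd1, Ccnd2 and Ccnd3, and the kinase Cdk6. A DMR was taken as a member when its midpoint lay in the RefSeq body of a gene or within 20 kb of it. This held for 23 of the 18333 DMRs listed, at 7 of the 10 genes. The DMRs come from T-WGBS (whole genome bisulfite sequencing by tagmentation) of lung endothelial cells (EC) of C57BL/6N mice. The groups are infant mice, aged 8 to 10 days, and young adult mice, aged 8 to 12 weeks, with 3 samples each, which the study calls biological replicates and draws as 3 mice per group. The study's methods give the mice as females, name no transgene or treatment, and describe the cells as sorted for CD31+CD34+ and against PTPRC, LYVE1, LY76 and PDPN. In T-WGBS a transposase fragments the DNA and adds the adaptors. Bisulfite converts cytosines that carry no methyl group, and the methylation level of a CpG is the share of its reads that stayed unconverted. The comparison asks how methylation differs between the growing lung endothelium of the infant and the quiescent endothelium of the young adult.

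Only the authors' mean of each group was analysed for every DMR. The spread between the 3 samples and the coverage behind a value are therefore unknown, no value below carries an error, and no difference was tested here against replicate error. The authors selected the DMRs on these samples, requiring 3 or more CpGs in a row, each with a p under 0.05 in a t-test, and a difference of 10% or more between the groups. The differences are therefore those of regions chosen for being different. A CpG outside the list may be unchanged or may have lacked coverage. In a population of cells, a level between 0 and 100% does not tell partly methylated cells from a mixture of cells.

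In the G1 phase, D-type cyclins bind the kinases CDK4 and CDK6, which phosphorylate the retinoblastoma protein and release E2F transcription factors. The INK4 inhibitors (among the genes described here, those encoded by Cdkn2a, Cdkn2b and Cdkn2c) bind CDK4 and CDK6 and keep cyclin D away from them. The CIP/KIP inhibitors p21, p27 and p57 (encoded by Cdkn1a, Cdkn1b and Cdkn1c) bind cyclin-CDK complexes more broadly. Cdkn2a also encodes ARF from an upstream first exon and another reading frame, a protein that stabilises p53 through MDM2. Endothelial cells leave the cell cycle as the vasculature matures.

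Most of the sequence in these DMRs was poor in CpGs, with short dense stretches. The following pieces of the GRCm38 (mm10) reference, read 5′ to 3′ on the plus strand with each CpG in capitals, are shown because they cover the places on which the results turn. Cdkn2b, Cdkn2a and Ccnd2 are transcribed from the other strand, so their letters are the reverse complement of the transcript. The Cdkn2b piece is the coding part of exon 2 up to the last CpG of its DMRs. It holds 17 CpGs in 214 bases, of which 16 lay in a DMR and 1 between both DMRs of the exon. The first Cdkn2a piece, 3.36 kb past the ARF start in the first intron of the ARF transcript, and the Cdkn1a piece, 9.64 kb upstream of the gene, show how dense the CpGs of a short DMR can be, with 3 CpGs in 17 bases and 4 in 13 bases. The Cdk6, Ccnd2 and Cdkn1b pieces are intronic and hold 4 CpGs in 238 bases, 3 in 158 bases and 3 in 85 bases.
Cdkn2b, exon 2, chr4:89307054-89307267: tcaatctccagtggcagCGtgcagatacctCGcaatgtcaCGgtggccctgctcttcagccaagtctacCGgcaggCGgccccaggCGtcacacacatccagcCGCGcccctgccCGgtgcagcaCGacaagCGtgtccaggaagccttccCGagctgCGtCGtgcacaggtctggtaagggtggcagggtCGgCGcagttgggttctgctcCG
Cdkn2a, ARF intron 1, chr4:89291247-89291263: CGttaggaataaCGgCG
Cdkn2a, ARF intron 1, chr4:89293427-89293647: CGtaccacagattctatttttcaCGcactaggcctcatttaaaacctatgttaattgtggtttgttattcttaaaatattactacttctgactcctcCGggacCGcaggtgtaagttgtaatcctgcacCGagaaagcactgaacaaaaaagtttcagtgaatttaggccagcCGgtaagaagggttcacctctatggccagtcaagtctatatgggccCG
Cdk6, intron 4, chr5:3450993-3451230: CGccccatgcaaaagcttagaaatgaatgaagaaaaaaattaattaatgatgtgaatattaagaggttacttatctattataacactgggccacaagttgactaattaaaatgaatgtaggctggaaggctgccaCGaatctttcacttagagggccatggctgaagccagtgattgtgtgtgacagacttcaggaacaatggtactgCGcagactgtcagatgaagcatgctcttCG
Ccnd2, intron 1, chr6:127148905-127149062: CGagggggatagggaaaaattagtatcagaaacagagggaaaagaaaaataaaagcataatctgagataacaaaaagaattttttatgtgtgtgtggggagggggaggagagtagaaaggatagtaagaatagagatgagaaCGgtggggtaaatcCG
Cdkn1a, upstream, chr17:29081330-29081342: CGtccCGagCGCG
Cdkn1b, intron 2, chr6:134922577-134922661: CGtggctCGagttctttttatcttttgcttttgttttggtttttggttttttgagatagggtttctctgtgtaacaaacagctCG

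Across the members, gain of methylation in young adult EC prevailed. Of the 23 DMRs, 20 were gains and 3 were losses, a share of 87.0% gains against 54.1% among all DMRs listed. The gains were also larger and began lower than is usual in the list. Their median difference was 33.7 percentage points, against 20.5 over all 9911 gain DMRs, and their median infant level was 23.5%, against 54.8%. Both traits go together in the list, as all gains with an infant level under 30% had a median difference of 25.8 points. The 3 losses had a median size of 19.96 points, below the 32.45 points of all 8422 loss DMRs. These medians rest largely on 1 locus, since 12 of the 20 gains lay at Cdkn2a and Cdkn2b. Without them, 8 of 11 DMRs (72.7%) were gains, the median gain was 25.2 points and the median infant level of the gains was 37.99%.

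**Figure D1:**
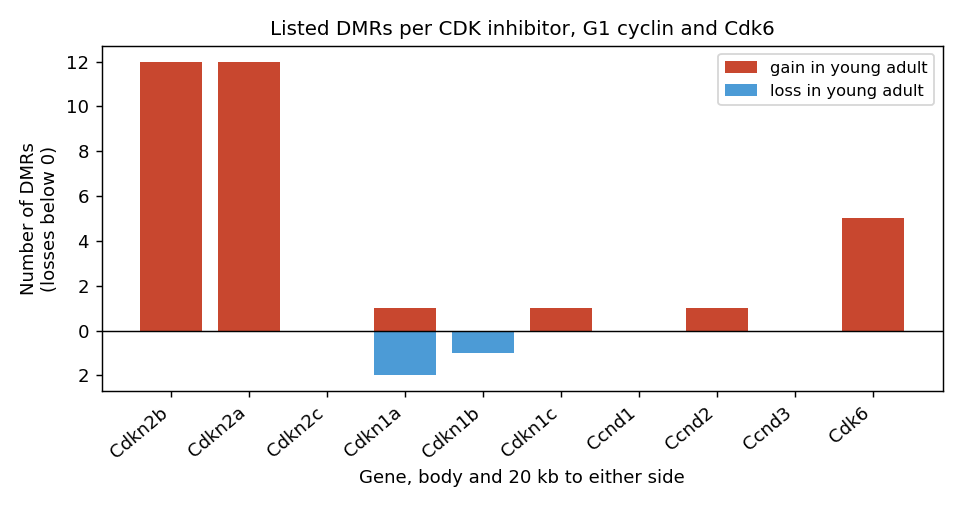
The number of DMRs per gene (y axis, gains above and losses below 0) is shown for each of the 10 genes (x axis), counted over the body and 20 kb to either side. The same 12 gains appear under Cdkn2b and Cdkn2a, 5 gains lie at Cdk6, and Cdkn2c, Ccnd1 and Ccnd3 have none.

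A DMR in the body or within 20 kb is common among genes. Of 21774 protein-coding RefSeq genes, 34.0% had at least 1, 24.4% had a gain and 15.8% had a loss. Of the 10 genes here, 7 had at least 1 DMR, 6 had a gain (Cdkn2a and Cdkn2b sharing theirs) and 2 had a loss. The number at the INK4 locus was less common, as 0.124% of protein-coding genes (27 genes) had 12 or more gains. It depends on how regions were split, since neighbouring DMRs at the locus lay as little as 0.031 kb apart. In that group 9 genes, Cdkn2a and Cdkn2b included, had no loss DMR, and the genes range from short to long. Gse1, over 352.9 kb, had 31 gains and 2 losses. Short genes were the HOX genes Hoxb2 (2.4 kb, 21 gains and 1 loss), Hoxb4 (3.4 kb, 14 gains and 2 losses) and Hoxb1 (2.5 kb, 12 gains and no loss), whose windows lie in 1 gene cluster, and Tbx3 (14.2 kb, 12 gains and 9 losses).

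**Figure D2:**
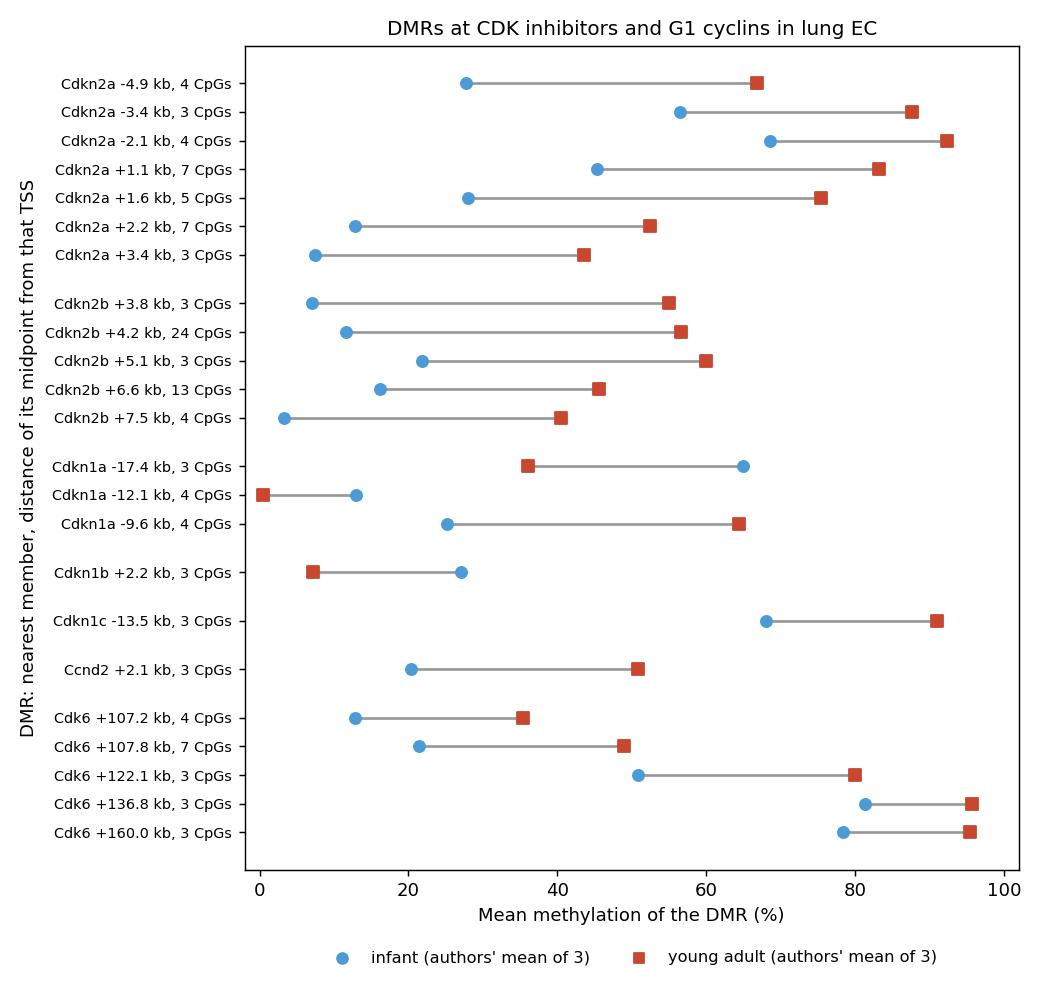
The mean methylation level of each of the 23 DMRs (x axis, in percent) is drawn for infant EC (circles) and young adult EC (squares), ordered by nearest member gene and by the distance of the midpoint from its TSS (y axis, the ARF start for Cdkn2a). The square lies to the right of the circle in 20 DMRs and to the left in 3, at Cdkn1a and Cdkn1b.

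The INK4 locus on chromosome 4 carried the longest series of gains among the members. Cdkn2b (89306289 to 89311032, minus strand) encodes p15INK4B, and Cdkn2a (89274473 to 89294619, minus strand) encodes p16INK4A and ARF. Because the windows of the neighbouring genes overlap, the 12 DMRs belong to both. They spanned 16021 bases (89291247 to 89307267) and held 80 of the 329 CpGs in that stretch (24.3%). Weighted by CpGs, their methylation level was 21.4% (infant) and 60.2% (young adult). When listed DMRs no more than 10 kb apart were joined, 7421 runs held gains alone. Of these, 2 had 12 or more DMRs, the other being a run of 21 gains with 89 CpGs on the same chromosome (137461155 to 137499097). The nearest listed DMR beyond the run, 54.9 kb upstream of Cdkn2b, was a gain as well, from 54.9% to 83.4%.

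The DMR with the most CpGs and that with the largest gain of the locus both lay in exon 2 of Cdkn2b, the last exon, which holds the larger part of the coding sequence and the 3′ untranslated region. A DMR of 24 CpGs (89306437 to 89307213) had a methylation level of 11.6% in infant EC and 56.6% in young adult EC, a gain of 44.9 points. It covered 160 coding bases and 617 bases of untranslated sequence. Of the 9911 gain DMRs, 2 had 24 or more CpGs, this one included. The second DMR of the exon (89307245 to 89307267), wholly coding with 3 CpGs, went from 7.01% to 55.1%, a gain of 48.0 points that ranked 9 among all gains. The larger DMR ranked 29. Both DMRs together took in 27 of the 29 CpGs of exon 2, and 16 of the 18 CpGs of its coding part, so nearly every CpG of the exon lay in a DMR.

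The study measured selected DMRs again by MassARRAY, a bisulfite PCR read by mass spectrometry, in independent replicates, and reports high reproducibility. It designed an amplicon for this exon. The primers of the amplicon match the fully converted plus strand at chr4:89306410-89306924. That stretch is 3′ untranslated sequence, and all 6 CpGs of the amplicon lay in the DMR of 24 CpGs. The primers are shown to locate the assay, with the bases that pair with or stand for converted cytosines in capitals.
Cdkn2b forward primer: TtaTaattTatTaTtgggTtttgtgg
Cdkn2b reverse primer: acaaaAccaatcaAaaataacttcc
The MassARRAY values were not used here.

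Downstream of Cdkn2b, towards Cdkn2a, 3 more gains followed. The DMR 0.322 kb past the gene's end (89305816 to 89306120) went from 21.8% to 59.98%, a gain of 38.1 points. A broad DMR of 13 CpGs in 1223 bases (89303801 to 89305023) went from 16.1% to 45.6%, a gain of 29.5 points. The next (89303365 to 89303606) had the lowest infant level of all 20 member gains, 3.28%, against 40.5% in young adult EC. Repeats annotated in the reference made up 91.3% of its bases. In all 5 DMRs nearest to Cdkn2b the infant level was under 30% and the young adult level between 40 and 70%.

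Between both genes, infant levels were higher. The DMR at 89299337 to 89299731, 4.91 kb upstream of the ARF start, went from 27.7% to 66.8%. The DMRs at 89297926 to 89298043 and 89296528 to 89296825 started at 56.6% and 68.6% and reached 87.6% and 92.3%, with gains of 31.1 and 23.7 points. The second of these was the smallest gain of the locus and had the highest level of the locus in both groups. All 8 DMRs from Cdkn2b to this point lie within Gm12610, a lncRNA gene on the plus strand, antisense to Cdkn2b, and the last of them at its second exon. T-WGBS levels do not show which transcript a region serves.

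Inside Cdkn2a, 4 gains lay in the intron between the first exon of ARF (89294334 to 89294619) and the first exon of p16INK4A (89281986 to 89282192). Going from the ARF exon into the intron, the infant levels were 45.4% (89293427 to 89293647), 28.1% (89292861 to 89293237), 12.9% (89292207 to 89292533) and 7.37% (89291247 to 89291263). The young adult levels were 83.3%, 75.5%, 52.5% and 43.6% in the same order. Both series fall with distance from the ARF exon. The gains were 37.9, 47.4, 39.6 and 36.3 points, and the gain of 47.4 points ranked 11 among all gains, in a DMR that is 59.9% annotated repeat.

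**Figure D3:**
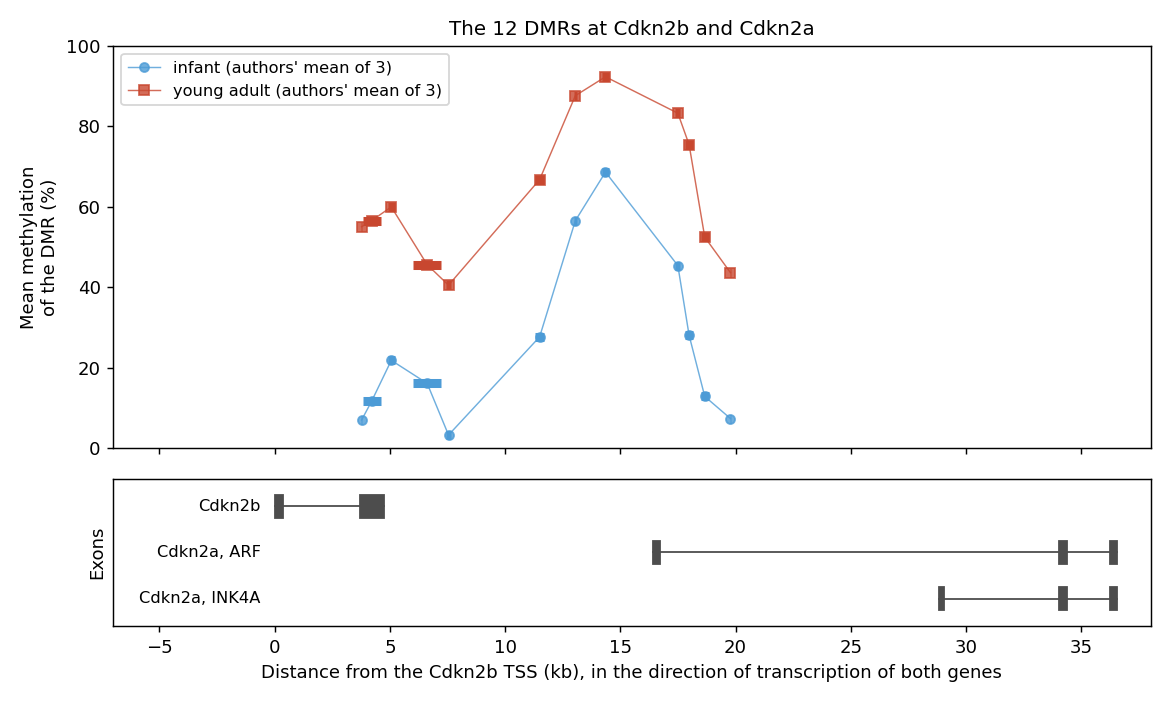
The upper panel plots the mean methylation level (y axis, in percent) of the 12 DMRs at Cdkn2b and Cdkn2a against the distance from the Cdkn2b TSS (x axis, in kb) for infant and young adult EC, with thick bars for the width of a DMR and thin lines joining neighbouring DMRs. The lower panel shows the exons of Cdkn2b and of both Cdkn2a transcripts. Levels peak between the genes in both groups, at 68.6% and 92.3%, and each young adult level lies above the infant level, by 23.7 to 48.0 points.

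The promoters of the locus held no listed DMR. In windows from 1 kb upstream to 100 bases downstream of the start, the ARF promoter has 132 CpGs, the p16INK4A promoter 34 and the Cdkn2b promoter 32, and 0 of them lay in a DMR. The same was true of all 14 promoter windows of the 10 genes, with 0 of 791 CpGs in a DMR. This is the usual case, as a DMR overlapped 1.24% of the promoters of protein-coding genes. Exons 2 and 3 of Cdkn2a, which p16INK4A and ARF share, held 31 and 11 CpGs and none in a DMR either. Cdkn2c, the only other INK4 gene among the members, encodes p18INK4C and had no DMR, and the nearest listed one lay 66.2 kb downstream.

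Long gain DMRs such as that in Cdkn2b were few. Limits of 10 CpGs and an infant level of 20% were chosen to resemble the Cdkn2b exon DMR, so its own place within them was given. In 23.4% of all gains the infant level was under 30%. Of the 9911 gains, 36 had 10 or more CpGs. An infant level under 20% was found in 16 of these 36, and 2 of the 16 lay at Cdkn2b. The 5 others with the largest gains lay nearest the TSS of Skida1 (15.3% in infant EC, 62.4% in young adult EC), and in the bodies of Prrt4 (17.7% and 56.2%), Ehbp1 (14.98% and 52.2%), Tead1 (17.6% and 50.2%) and Dnmt3a (19.7% and 51.7%). Skida1 alone had a larger gain, 47.1 points, than the Cdkn2b exon with 44.9. TEAD1 is a transcription factor of the Hippo pathway, and DNMT3A is a DNA methyltransferase that sets new methylation. The likeness is one of level and CpG number only.

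At the CIP/KIP genes the direction was mixed. Cdkn1a (chromosome 17, 29090979 to 29100722, plus strand) encodes p21, the inhibitor induced by p53, and had 3 DMRs, all upstream of the gene and none in its body. The farthest, 17.39 kb from the gene (29073544 to 29073633, 3 CpGs), went from 64.9% to 36.1% and thus fell by 28.8 points. The second (29078795 to 29078898, 4 CpGs) went from 13.0% to 0.439% and fell by 12.5 points, which ranked 8362 of 8422 losses by size. By their midpoints both lie in the intron of Trp53cor1, the gene of lincRNA-p21, and the second is centred 0.28 kb from the start of that lncRNA and is 65.4% annotated repeat. The third (29081330 to 29081342, 4 CpGs in 13 bases) lies outside any annotated gene and went from 25.2% to 64.5%, a gain of 39.3 points that ranked 134 among all gains. A region of lower and one of higher methylation in young adult EC thus lay 2.43 kb apart.

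Cdkn1b (chromosome 6, 134920401 to 134925525, plus strand), which encodes p27, a marker of cells that have left the cycle, had the only loss inside a member's body. Its DMR in intron 2 (134922577 to 134922661, 3 CpGs) went from 27.1% to 7.15% and fell by 19.96 points. Annotated repeat made up 81.2% of it. The CpG-rich exon 1 upstream, with 71 CpGs, held none in a DMR.

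Cdkn1c (chromosome 7, 143458339 to 143461059, minus strand), an imprinted gene that encodes p57, had 1 gain 13.47 kb upstream (143474509 to 143474550, 3 CpGs), from 68.0% to 91.0%, a difference of 22.9 points. This DMR lies in the first intron of the neighbouring transporter gene Slc22a18, whose start is the nearest TSS at 0.6 kb. The 83 CpGs of the Cdkn1c promoter held none in a DMR. Among DMRs inside the 20 kb limit, those of Cdkn1a at 17.39 kb and of Cdkn1c at 13.47 kb were nearest to it. Just outside, a gain lay 29.6 kb downstream of Cdkn1c (28.7% and 60.03%) and another 33.5 kb upstream of Cdkn1a (22.2% and 48.7%).

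Among the cyclins, Ccnd2 had a DMR and Ccnd1 and Ccnd3 had none. In Ccnd2 (chromosome 6, 127125162 to 127152188, minus strand) the region lay in intron 1, 2.1 kb from the curated TSS (127148905 to 127149062, 3 CpGs). It went from 20.3% to 50.9%, a gain of 30.6 points. The start of 9330179D12Rik, a lncRNA gene on the other strand, is nearer, at 0.41 kb. Annotated repeat made up 53.8% of the DMR. The nearest DMR to Ccnd1 lay 76.0 kb upstream and that to Ccnd3 52.3 kb upstream. Ccnd3 spans 94.6 kb, and 44.7% of protein-coding genes of 80 to 120 kb had no DMR.

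Cdk6 (chromosome 5, 3341004 to 3531008, plus strand), which encodes the kinase that D-type cyclins activate, had 5 DMRs, all gains and all intronic. They began 107 kb past the curated TSS and ended 160 kb past it, in introns 4 and 5 of 7. The first pair, 276 bases apart in intron 4, had the lowest levels. The DMR at 3450993 to 3451230 went from 12.8% to 35.5%, and that at 3451507 to 3451818, with 7 CpGs the most of the gene, went from 21.4% to 48.9%. Another in the same intron (3465903 to 3466098) went from 50.8% to 80%, the largest gain of the gene at 29.2 points. In intron 5, the DMRs at 3480676 to 3480789 and 3503894 to 3503973 started at 81.3% and 78.4% and reached 95.7% and 95.5%, gains of 14.4 and 17.1 points. The low pair and the high pair thus differ in level in both groups.

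Cdk6 is long, and its 20 CpGs in DMRs are 0.828% of the 2415 CpGs in its body. Over all protein-coding genes 1.37% had 5 or more gains, and among those of 150 to 250 kb 5.97% did. The authors' list assigns all 5 to the neighbouring gene Fam133b by nearest TSS, since the start of Cdk6 is farther away. For the DMRs of intron 4 the nearest RefSeq start is that of Gm29868, at 38.4 to 53.3 kb.

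**Figure D4:**
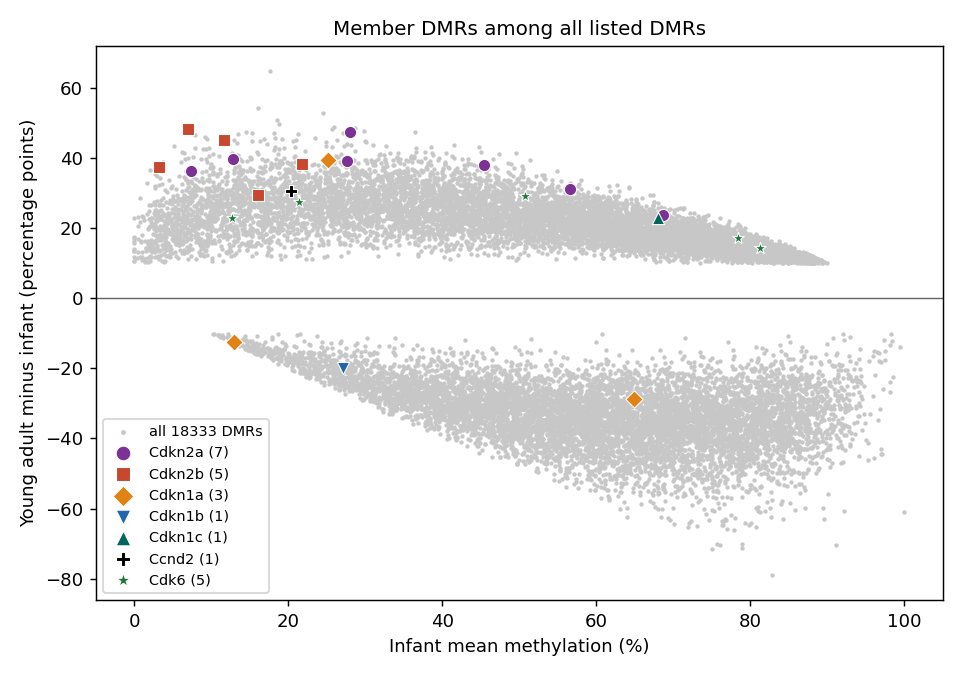
The difference between young adult and infant EC (y axis, in percentage points) is plotted against the infant methylation level (x axis, in percent) for all 18333 DMRs (grey) and for the 23 member DMRs (coloured by nearest gene, number of DMRs in brackets). The Cdkn2a and Cdkn2b DMRs span 23.7 to 48.0 points and rank from 9 to 3390 among the 9911 gains by size, and those of Cdk6 lie among the other gains, between 14.4 and 29.2 points. No DMR lies between -10 and 10 points because of the authors' threshold.

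The member DMRs shared few sequence features beyond their position. Their median GC content was 45.0%, against 50% over all DMRs, and 5 of 23 (21.7%) were more than 50% annotated repeat, against 8.21%. Any part of the repeats in the methylation values was not tested. With 5 or more CpGs there were 6 (26.1%, against 15.7%), of which 5 lay at Cdkn2a and Cdkn2b and 1 at Cdk6. A window of 200 bases at the midpoint had the composition of a CpG island (a GC content of 50% or more and over 0.6 of the CpGs expected by chance) for 1 member, the coding DMR of Cdkn2b, and for 4.09% of all DMRs. On either strand of these windows, the AP-1 motif TGANTCA was found at 3 members (13.0%, all at Cdkn2a and Cdkn2b) and in 6.51% of all DMRs. The ETS motif CAGGAAG was found at 1 member and in 10.8% of all DMRs, and the GC box GGGCGG at 1 member and in 5.92%. The E-box CACGTG was found at 0 members and in 4.22% of all DMRs. With 23 windows, these shares are descriptions of the letters and not of binding.

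Of the 45 other genes of the G1/S transition examined, 14 (31.1%) had a DMR in the body or within 20 kb, close to the 34.0% of protein-coding genes. They held 13 gains and 7 losses. The genes of the E2F family had the most, with 5 of 8 genes and 7 gains against 1 loss. Of these, E2f1 and E2f2 had a DMR in the body, and the others only within 20 kb of it. E2f2 alone had 4 DMRs, namely gains of 15.5 (outside its body), 26.6 and 18.4 points and a loss of 21.3 points. E2f1 had a single gain of 44.9 points in its body. Cdc25a, which encodes a phosphatase that activates CDKs, had 2 losses outside its body, of 29.2 and 36.3 points. Fbxw7, which encodes the ubiquitin ligase subunit that recognises cyclin E, had 2 losses in its body, of 27.1 and 23.0 points. Cdc6, a replication licensing factor, had 2 gains of 31.99 and 24.99 points, both outside its body. A single loss, of 33.7 points, lay near Cdk2, the kinase that cyclin E activates.

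The other families are small, so their counts cannot be told apart from the 34.0% of protein-coding genes with a DMR. The 6 genes of cyclins A, B and E and the inhibitor genes Cdkn2d and Cdkn3 had no DMR. Of the 3 retinoblastoma family genes Rbl1 had 1 loss, and of the 6 MCM helicase genes Mcm2 had 1 gain. Of the 3 MYC family genes 1 had a gain, and the 3 LIN subunit genes of the DREAM complex had no DMR. The 4 DMRs of E2f2 were the most at any of the 45 genes.

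The label of the cells was set against marker genes. Among 7 endothelial markers 5 had a DMR (34.0% of protein-coding genes did), 5 had a loss (15.8%) and 1 had a gain (24.4%). These were 38 losses and 1 gain in all, led by 17 losses at Pecam1 and 15 at Cdh5. Among 10 markers of other cell types 4 had one, near the share of 34.0% of protein-coding genes, with 2 losses near Lyve1, 1 gain each near Epcam and Pdgfra and 1 gain in the body of Acta2. Because the file lists regions that differ, it does not show the level of these markers elsewhere, and any part of other cells in the values was not tested.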

How the data were processed

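Lung EC of 3 infant and 3 young adult samples were profiled by T-WGBS with 30 ng of genomic DNA as input and 3 libraries per sample. The authors aligned the reads to mm10 with BWA (0.6.1), removed duplicates, left out the 9 bases next to tagmented ends, and called DMRs with bsseq on unsmoothed data, from CpGs covered 8-fold or more in 2 or more samples of a group. The deposited list gives each DMR's mean methylation per group as a fraction, which was multiplied to percent here, and the infant mean was subtracted from the young adult mean. Depth per DMR is unknown. Positions in the list count from 0 and mark the C of the first and last CpG, as checked for all 18333 DMRs against GRCm38. They are printed counted from 1, from that C to the last G. Genes are those of NCBI RefSeq for GRCm38.p6. Medians, shares and ranks were computed with Python (3.11.15), pandas (2.3.3), numpy (2.4.6) and pyfaidx (0.9.0.4), and the counting was tested on simulated regions. The members, gene lists and comparisons were chosen with earlier results of these data known. All members were named, with the 5 other G1/S genes that had the most DMRs (ties by alphabet) and the 5 gains most like the Cdkn2b exon. E2f1, Rbl1, Mcm2, Gse1, the HOX genes, Tbx3, the marker genes and genes beside a DMR were named after their values were seen. The planned permutation test, the omission of single replicates and the replicate block need values per sample and were not run.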

Additional observations from a re-analysis of the deposited data

How the results depend on the processing

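The values per group were the authors' means, so that the alternatives concern which DMRs were counted. No paired analysis was possible because the file holds group means only, and leaving out single replicates was not possible for the same reason. The number of member DMRs was 23, with 20 gains and 3 losses at 7 genes, and 14 other G1/S genes had a DMR. In the gene bodies alone it was 13, with 12 gains and 1 loss at 5 genes, and 6 other G1/S genes. With a 5 kb flank the losses numbered 1, the member genes with a DMR 5 and the other G1/S genes 8. With 50 kb the other G1/S genes numbered 22. A difference of at least 20% left 1 loss. Joining DMRs of the same direction no more than 500 bases apart left 17 member DMRs, with 14 gains and 3 losses. By the authors' nearest promoter 21 DMRs counted, at 6 genes. Of the 23 members 13 met that rule, so it took a partly different set of DMRs. With at least 5 CpGs per DMR there were 6 member DMRs, 6 gains and 0 losses, at 3 genes, with 0 other G1/S genes. That setting has no median loss. Omitting the Cdkn2a and Cdkn2b DMRs, an alternative chosen after the data were seen, left 11 member DMRs and 8 gains. The median gain of 33.7 points became 33.4 (gene bodies), 30.6 (50 kb), 33.8 (authors' nearest promoter), 36.8 (20% difference), 38.7 (5 CpGs), 30.8 (merged at 500 bases) and 25.2 (without the INK4 locus). The median loss of 19.96 points became 21.4 (authors' nearest promoter) and 28.8 (20% difference). Any overlap in place of the midpoint and curated RefSeq transcripts alone changed none of these values. Depth limits the list, since CpGs below the coverage minimum could not enter it.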
